A study of Homo sapiens with 6 samples.

Results

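This set of 10 genes passes a hormone signal from its receptor to cyclic AMP or phospholipase C or, for the arrestins, ends it. These genes were followed in MDA-MB-231 cells treated with an siRNA against parathyroid hormone-related protein (PTHrP). They are the adenylyl cyclases ADCY2, ADCY3, ADCY6, ADCY7 and ADCY9, the G protein alpha subunits GNAS, GNAQ and GNA11, and the arrestins ARRB1 and ARRB2. Members were found by gene symbol, taking every probe set (a group of short probes read together as 1 signal) whose annotation named a member and no other gene. This gave 31 of 22283 probe sets for 9 of the 10 genes, and no probe set was listed under ARRB2, which is not analysed here. Of the 31, 25 passed a filter on dim signal, with at least 1 for each of the 9 genes, and 6 did not.

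MDA-MB-231 is an established line of mesenchymal-like human breast cancer cells. Both groups were electroporated and harvested 3 days later: the siPTHrP group received the siRNA against PTHrP, and the siLuc group a control siRNA named for luciferase. There were 3 independent experiments with 1 array of each group, so each group had 3 arrays. The siLuc array of experiment 1 carried no number and was given the number left over. The description of another siLuc sample gave a different number from its title, and the title was followed. Other pairings were not tried, and all differences within experiments rest on this one. The comparison, made within experiments, asks which transcripts respond to siPTHrP. The transcript that the siRNA targets is not analysed here, so the knockdown was not checked.

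PTHrP is a secreted peptide whose receptor is shared with parathyroid hormone and belongs to the receptors that span the membrane several times and act through G proteins. The bound receptor loads the alpha subunit encoded by GNAS with GTP, and that subunit switches on adenylyl cyclases, the membrane enzymes that make cyclic AMP from ATP. The same receptor can act through GNAQ and GNA11, which switch on phospholipase C beta. Arrestins bind the phosphorylated receptor, end its coupling to G proteins and take it into the cell.

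No member passed the threshold. With limma, the experiment as a block and Benjamini-Hochberg adjustment over all 13329 probe sets past the filter, 0 of the 25 member probe sets had an adjusted p under 0.05, and 0 of all 13329 did (0%). At an unadjusted p under 0.05, 2 of the 25 were lower with siPTHrP, 1 of ADCY3 and 1 of ARRB1, and 0 were higher. The background was 5.36% of all probe sets lower and 6.77% higher, so 2 of 25 is near what the whole array gave. The median log2 fold change of the 25 was -0.11, and 19 lay below 0. Over all 13329 the median was 0.030, and 47.5% lay below 0. Of the 25 probe sets 8 belong to GNAS and 6 to GNA11, so they are not separate genes. In bulk RNA, fewer cells of a type and less RNA per cell cannot be told apart. By experiment 17, 16 and 14 of the 25 were lower with siPTHrP in experiments 1, 2 and 3, against 46.6%, 53.0% and 51.3% of all probe sets. With quantile normalization 17 of the 25 lay below 0, against 42.8% of all. With median centring 15 did, against 41.2% of all.

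One siLuc array stood apart. The siLuc array of experiment 1 had rank correlations of 0.716 to 0.725 with the other 5, which correlated with each other at 0.882 to 0.960. Its 18 hybridisation controls had a geometric mean of 273057, against 10838 to 41428 on the other 5. It was the highest or the lowest of the 6 arrays for 17 of the 25 member probe sets (68%), and for 64% of all 13329. Values of members that move most with it are given with and without it; a value without it is a log2 fold change from a fit that also drops the pairing. The 6 markers of mesenchymal-like MDA-MB-231 cells, among them VIM, AXL and CD44, all passed the filter, with signals from 3697 to 154350. Of these 6 only PLAU had groups without overlap, and it was higher with siPTHrP. It read 3697, 5159 and 5033 with siLuc and 7572, 7287 and 6523 with siPTHrP. Of 6 luminal epithelial markers, PGR and CDH1 did not pass. The summed luminal signal was 2878 to 6026 with siLuc and 2430 to 2632 with siPTHrP, highest on the siLuc array of experiment 1. These sums did not overlap, but the groups overlapped for each of the 6 markers on its own. For 3 endothelial markers the sums were 1269 to 3705 and 556 to 1391, and for 3 leukocyte markers 873 to 2958 and 726 to 1113. Among the endothelial and leukocyte markers only PECAM1, an endothelial marker, had no overlap. It read 2013, 1056 and 1460 with siLuc and 791, 419 and 481 with siPTHrP. Over all probe sets past the filter, 9.69% had no overlap on the lower side and 8.94% on the higher side. No marker with a probe set read 0 on any array, but PGR went down to 9, so a signal above 0 does not show that a marker was expressed. The part of these signals in the members' differences was not tested.

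ADCY3, a calcium-sensitive adenylyl cyclase best known from olfactory neurons and primary cilia, was the member with the smallest p. Its probe set 209320_at read 5234, 3479 and 4722 on the siLuc arrays of experiments 1, 2 and 3. On the siPTHrP arrays of the same experiments it read 1659, 1521 and 2886. All 3 siPTHrP arrays lay under all 3 siLuc arrays, and the siLuc array of experiment 1 was the highest of the 6. The means were 4478 ± 903 and 2022 ± 751 (SD, n = 3). This is 0.441-fold, a log2 fold change of -1.18 (SE 0.25, 95% interval -1.74 to -0.62, unadjusted p = 0.000935, limma adjusted p = 0.304). The difference was -1.65, -1.19 and -0.71 on the log2 scale in experiments 1, 2 and 3, lower in 3 of 3.

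The second ADCY3 probe set, 209321_s_at, had the same sign with a smaller difference. It read 2518, 2339 and 2037 with siLuc and 1155, 1852 and 1799 with siPTHrP, again with no overlap. The fold was 0.687, with a log2 fold change of -0.54 (95% interval -1.19 to 0.11, limma adjusted p = 0.458). Its difference was -1.11 in experiment 1 and -0.33 and -0.18 in experiments 2 and 3. Whether the probe sets differ from each other was not tested.

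The ADCY3 sets were also lower without the siLuc array that stood apart. With that array removed and the pairing dropped, 209320_at gave a log2 fold change of -1.06 (adjusted p = 0.305), and without experiment 1 it gave -0.95 (adjusted p = 0.111). It passed the threshold in 2 of 13 alternatives: with estimated array weights (limma adjusted p = 0.0199) and without experiment 3 (log2 fold change -1.42, limma adjusted p = 0.0123). In these 2 fits 177 and 215 of all probe sets past the filter passed, against 0 in the main fit. Both fits keep the siLuc array that stood apart, and the second rests on 2 experiments. Over the 13 alternatives the adjusted p of 209320_at ran from 0.0123 to 0.532. The probe set 209321_s_at gave -0.26 without experiment 1.

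**Figure D1:**
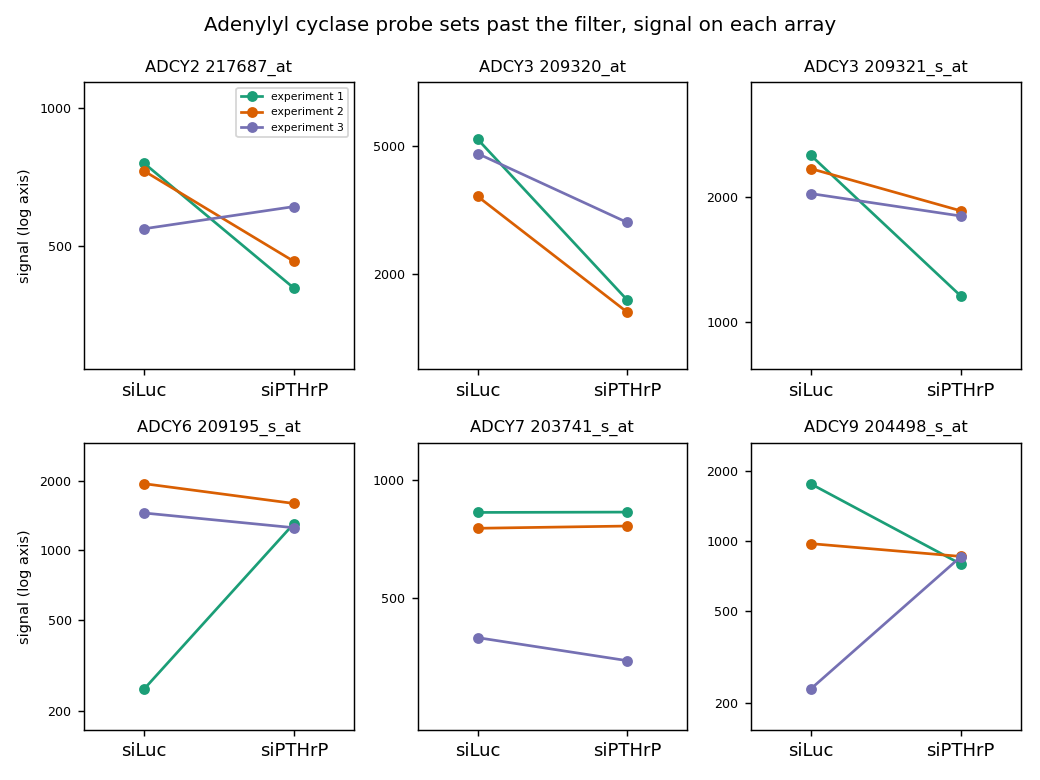
Signal of the 6 adenylyl cyclase probe sets past the filter on each array, on a log axis with its own range in each panel; each line joins the siLuc and siPTHrP array of 1 experiment. In both ADCY3 panels the siPTHrP array is lower in all 3 experiments with no overlap between groups, and the steep ADCY6 line is experiment 1, whose siLuc array read 250.

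RefSeq lists 2 starts of ADCY3, both on the minus strand of chromosome 2. The 250 bases before each are printed because ADCY3 was the leading member and because CREB, the factor that responds to cyclic AMP, binds the motif TGACGTCA or its shorter form TGACG. Capitals mark TGACG and the GC box GGGCGG on either strand (CGTCA and CCGCCC on the other); TGACG also lies inside TGACGTCA. The first is chr2:24920238-24920487 and the second chr2:24919586-24919835 (GRCh38.p14, minus strand).
ADCY3 first start: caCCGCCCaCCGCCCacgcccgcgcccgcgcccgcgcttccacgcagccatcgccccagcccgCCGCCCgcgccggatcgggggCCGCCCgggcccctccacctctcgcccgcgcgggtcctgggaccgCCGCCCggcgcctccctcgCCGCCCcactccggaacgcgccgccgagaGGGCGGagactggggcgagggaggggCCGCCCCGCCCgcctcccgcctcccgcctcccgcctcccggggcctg
ADCY3 second start: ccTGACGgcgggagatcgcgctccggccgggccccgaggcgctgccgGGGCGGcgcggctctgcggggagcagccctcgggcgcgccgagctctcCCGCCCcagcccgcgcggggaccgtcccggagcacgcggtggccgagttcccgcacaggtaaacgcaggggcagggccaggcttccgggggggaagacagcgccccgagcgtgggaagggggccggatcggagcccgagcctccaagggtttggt

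The full motif TGACGTCA was in neither window, and 1.65% of 35116 windows of the same length held it. TGACG was absent from the first and occurred 1 time in the second, beginning 248 bases before the start, where 21.2% of all windows held it. GGGCGG occurred 9 times in the first and 2 times in the second, with overlaps counted, and 42.6% of all windows held it. G and C made up 85.2% and 78.0% of the bases. Windows were listed for 6 of the 10 genes, 12 in all with 6 of them from GNAS, and TGACG was in 6 of the 12. These matches are letters in a window and not measured binding.

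The other 4 adenylyl cyclases with a value gave no difference past the threshold, and their intervals were wide. ADCY6, a cyclase inhibited by calcium, read 250, 1942 and 1449 with siLuc and 1302, 1594 and 1251 with siPTHrP. The siLuc array of experiment 1 was far below the other 5, and the groups overlapped. The fold was 1.52 (95% interval 0.673 to 3.44, limma adjusted p = 0.621). Its log2 difference was 2.31 in experiment 1 and -0.28 and -0.21 in experiments 2 and 3. With that siLuc array removed and the pairing dropped, the log2 fold change turned to -0.28.

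ADCY7, a cyclase that G protein beta and gamma subunits stimulate together with GNAS, differed little within experiments. It read 824, 751 and 395 with siLuc and 826, 761 and 345 with siPTHrP. Experiment 3 was the dimmest in both groups, and the groups overlapped. The fold was 0.962 (95% interval 0.452 to 2.05, adjusted p = 0.970).

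ADCY9, a cyclase that forskolin hardly activates, had 3 probe sets, of which 204498_s_at passed the filter. It read 1763, 975 and 231 with siLuc and 797, 859 and 855 with siPTHrP. The siLuc arrays were spread over a wide range and the siPTHrP arrays lay within it. The fold was 1.12 (95% interval 0.455 to 2.78, limma adjusted p = 0.917), and experiments 1, 2 and 3 gave log2 differences of -1.13, -0.18 and 1.82. The siLuc array of experiment 1 was the highest of the 6, and the log2 fold change of 0.17 became 0.79 without it. Its dim probe set 215400_x_at read 453, 375 and 707 with siLuc and 270, 82 and 397 with siPTHrP. It was lower in 3 of 3 experiments, at 0.444-fold in the fit with no filter (limma adjusted p = 0.509), but the groups overlapped. The third, 204497_at, lay between 70 and 373 on the 6 arrays.

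ADCY2, a cyclase mostly studied in the brain, was dim throughout. Its 1 probe set past the filter, 217687_at, read 757, 728 and 545 with siLuc and 405, 463 and 609 with siPTHrP. The siPTHrP arrays of experiments 1 and 2 were lower, and that of experiment 3 was higher, than their siLuc partners. The fold was 0.731 (95% interval 0.321 to 1.66, limma adjusted p = 0.722). The dim sets 213217_at and 213219_at read 51 to 353 and 150 to 305 on the 6 arrays.

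GNAS, the stimulatory alpha subunit, was represented by 9 probe sets, and the 5 brightest showed little difference. The GNAS locus is imprinted and gives several products from different starts that share downstream exons, so its probe sets may report different transcripts. The brightest, 200780_x_at, read 44686, 64077 and 54754 with siLuc and 44539, 48233 and 61444 with siPTHrP. The arrays of experiment 1 were nearly equal, and the groups overlapped. These 5 sets had folds between 0.890 and 0.999, with adjusted p between 0.661 and 0.998 in limma. Their 95% intervals lay within 0.680-fold and 1.38-fold, the narrowest of the members: SEs were 0.16 to 0.20 on the log2 scale, and 0.25 to 0.73 for the other 3 GNAS sets past the filter. All 5 carry the suffix _x_at, which the array's maker gives to sets whose probes can also match other transcripts. The set 200981_x_at read 46262, 56208 and 55832, then 42137, 45731 and 53066, which is lower in 3 of 3 experiments. Its fold was 0.890. Set 212273_x_at, at 0.891-fold, was also lower in 3 of 3. With the siLuc array of experiment 1 removed and the pairing dropped, the log2 fold changes of the 5 sets ran from -0.29 to -0.10. Sets 200981_x_at and 212273_x_at then had no overlap, as had 17.1% of all probe sets on the lower side.

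The dimmer GNAS probe sets disagreed in direction. Probe set 214157_at read 179, 513 and 724 with siLuc and 757, 890 and 807 with siPTHrP. All siPTHrP arrays lay above all siLuc arrays, and the siLuc array of experiment 1 was the lowest. The fold was 1.96 (95% interval 0.816 to 4.71, limma adjusted p = 0.487), with a log2 fold change of 0.97, or 0.41 with that array removed and the pairing dropped. Probe set 217057_s_at read 280, 665 and 645, then 525, 414 and 158, at 0.672-fold (adjusted p = 0.748). Its log2 difference was 0.87 in experiment 1 and -0.66 and -1.93 in experiments 2 and 3, and its log2 fold change of -0.57 became -0.97 without the outlying siLuc array. The sixth set, 217673_x_at, gave 0.923-fold, and 217058_at, under the filter, read between 35 and 692.

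GNAQ, which switches on phospholipase C beta, had 2 probe sets, of which 211426_x_at carries the suffix for possible matches to other transcripts. Set 211426_x_at read 3217, 2074 and 1253 with siLuc and 1644, 1476 and 1483 with siPTHrP. The siPTHrP arrays lay close together, inside the range of the siLuc arrays. The fold was 0.757 (95% interval 0.466 to 1.23, limma adjusted p = 0.581). The siLuc array of experiment 1 was the highest of the 6, and its log2 fold change of -0.40 became -0.073 without it. Set 202615_at read 1952, 2299 and 1201, then 1656, 1818 and 1101. It was lower in 3 of 3 experiments, at 0.852-fold (95% interval 0.553 to 1.31, adjusted p = 0.729), but the groups overlapped.

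GNA11, the close relative of GNAQ, had 6 probe sets, 5 below 0 and 1 above. Their folds ran from 0.699 to 1.60, with adjusted p from 0.460 to 0.977 in limma. Sets 214679_x_at, 213944_x_at and 213766_x_at carry the suffix _x_at, so their probes can also match other transcripts. The set above 0, 214679_x_at, read 669, 1695 and 1617 with siLuc and 2144, 1947 and 1825 with siPTHrP. The groups did not overlap, and the siLuc array of experiment 1 was far below the rest. Its log2 fold change was 0.68, and 0.25 with that array removed and the pairing dropped. The set furthest below 0, 213944_x_at, read 7094, 2146 and 2991, then 2422, 2241 and 2852. Here the same siLuc array was far above the rest, and the log2 fold change of -0.52 became -0.024 with it removed and the pairing dropped. The remaining 4 sets gave 0.984-fold (564_at), 0.930-fold (213766_x_at), 0.852-fold (40562_at) and 0.851-fold (204248_at). None was on the same side in all 3 experiments. Without the outlying siLuc array the log2 fold change of 204248_at went from -0.23 to -0.028, and that of 564_at from -0.023 to -0.29.

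ARRB1, the arrestin that binds phosphorylated receptors in many tissues, had 4 probe sets that did not share a direction. Set 43511_s_at read 1852, 1722 and 2087 with siLuc and 982, 1233 and 813 with siPTHrP. The groups did not overlap, and the siPTHrP array was lower in 3 of 3 experiments. The means were 1887 ± 185 and 1009 ± 211 (SD, n = 3), at 0.533-fold, a log2 fold change of -0.91 (SE 0.32, 95% interval -1.63 to -0.18, unadjusted p = 0.0197, limma adjusted p = 0.374). With the outlying siLuc array removed and the pairing dropped it was -0.92 (adjusted p = 0.318). Over 13 alternatives the adjusted p ran from 0.172 to 0.591.

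A second ARRB1 set had the opposite sign. Set 221861_at read 252, 552 and 433 with siLuc and 461, 964 and 1100 with siPTHrP. Each siPTHrP array was above its partner, higher in 3 of 3, but the groups overlapped. The fold was 1.97 (95% interval 0.875 to 4.43, adjusted p = 0.458). Set 49111_at read 996, 471 and 321, then 555, 746 and 831, lower in experiment 1 and higher in the others, at 1.30-fold (adjusted p = 0.782). Without the outlying siLuc array its log2 fold change of 0.38 became 0.82, and that of 221861_at went from 0.98 to 0.67. The fourth set, 218832_x_at, lay between 93 and 195 and did not pass the filter. The deposited values do not show which parts of the transcript these sets cover, and whether the sets differ from each other was not tested, so no direction is given for ARRB1 as a gene.

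**Figure D2:**
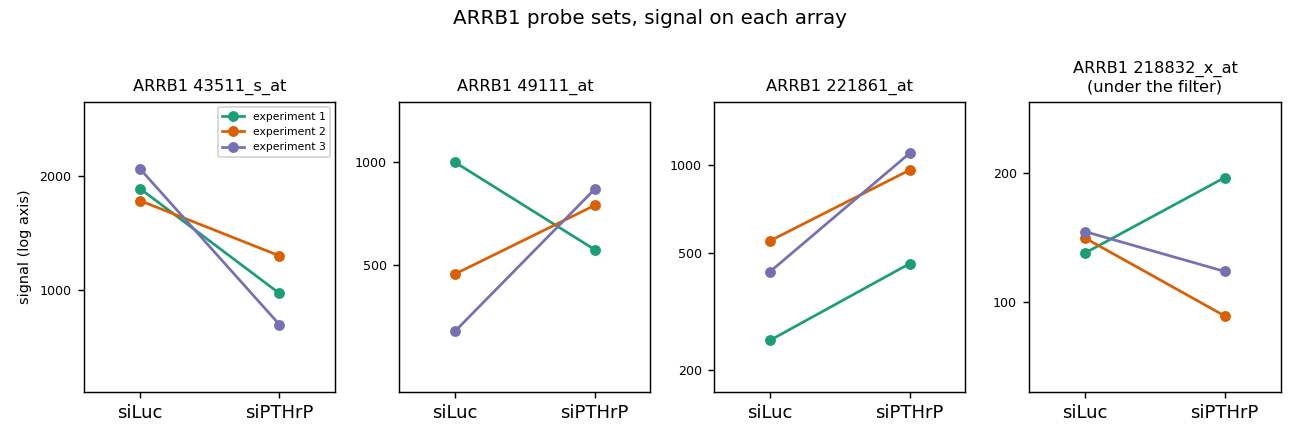
Signal of the 4 ARRB1 probe sets on each array, on a log axis with its own range in each panel; each line joins the siLuc and siPTHrP array of 1 experiment. Set 43511_s_at is lower with siPTHrP in all 3 experiments and 221861_at higher in all 3.

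Counted over experiments, 6 of the 25 member probe sets were lower in all 3 and 3 were higher in all 3. The background was 19% and 19.1% of all 13329 probe sets. The 6 were both ADCY3 sets, 2 of GNAS, 1 of GNAQ and 1 of ARRB1, and the 3 were 1 each of GNAS, GNA11 and ARRB1. Without experiment 1, 9 were lower and 4 higher in both experiments left, with a background of 32.2% and 27.9%. The groups did not overlap for 3 lower sets, both of ADCY3 and 1 of ARRB1, and for 2 higher sets, 1 each of GNAS and GNA11. Here the background was 9.69% lower and 8.94% higher. Without the siLuc array of experiment 1 the counts were 7 and 3, with a background of 17.1% and 13.8%. The members' shares were 12% and 8% with all arrays, near the background, and 28% and 12% without that array.

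**Figure D3:**
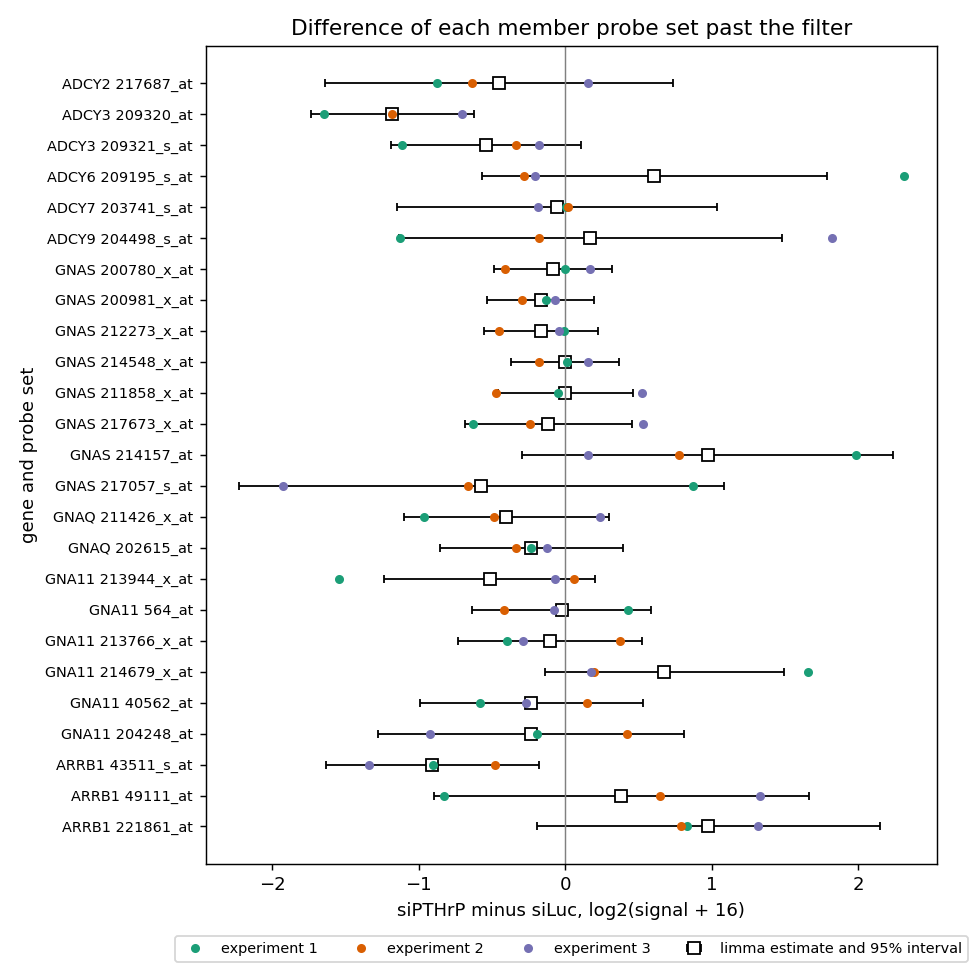
Difference between siPTHrP and siLuc, on the log2(signal + 16) scale, for the 25 member probe sets past the filter. Points are the 3 experiments, squares the limma estimates and bars their 95% intervals; the intervals of ADCY3 209320_at and ARRB1 43511_s_at lie wholly below 0.

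**Figure D4:**
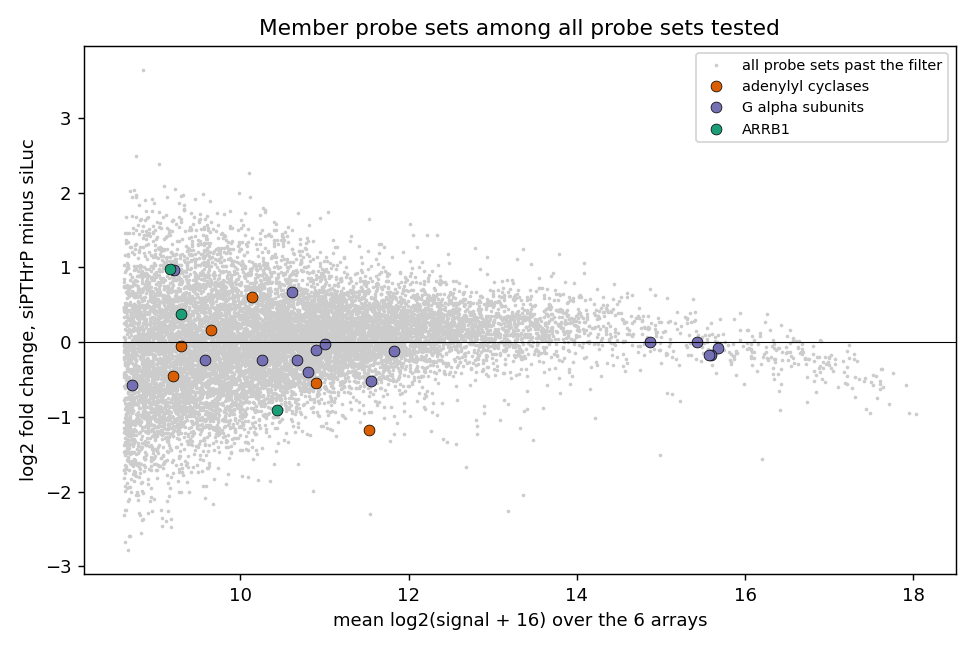
Log2 fold change of siPTHrP against siLuc over the mean log2 signal of the 6 arrays, for all 13329 probe sets past the filter (grey) and the 25 member sets (coloured by family). The member sets run from -1.18 for ADCY3 to 0.98 for ARRB1 221861_at, and the 5 brightest GNAS sets lie close to 0.

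Other genes of the same machinery were read from 6 lists with 83 genes, of which 71 were on the array by name and 55 had a probe set past the filter. Each gene was read on its brightest set. With limma 0 of the 55 passed the adjusted threshold, and at an unadjusted p under 0.05 there were 6 lower and 3 higher, against 5.36% and 6.77% of all probe sets. Their median log2 fold change was -0.10, with 31 below 0 and 24 above, against a median of 0.030 and 47.5% below 0 for all probe sets. The counts given below for each list have the same backgrounds. The 2 genes of each list with the smallest p follow.

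Among the other G alpha subunits, 9 of 12 passed the filter, with 2 lower and 1 higher at an unadjusted p under 0.05. GNAI3, an inhibitory alpha subunit, read 7151, 6361 and 7290 with siLuc and 9571, 9968 and 10627 with siPTHrP. The groups did not overlap, and the fold was 1.45 (limma adjusted p = 0.345), but only 1 of its other 2 sets had this sign. GNAO1, an inhibitory alpha subunit of neurons, read 1665, 919 and 861, then 401, 464 and 600, at 0.447-fold (adjusted p = 0.402). The siLuc array of experiment 1 was the highest for GNAO1. Of the beta and gamma subunits 11 of 14 passed the filter, with 2 lower and 1 higher. GNG3 stood at 0.427-fold (adjusted p = 0.377) and GNG5 at 1.37-fold (adjusted p = 0.396). The siLuc array of experiment 1 was the highest for GNG3, at 1750, and the lowest for GNG5, at 7736.

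The 2 other cyclase-related genes past the filter were ADCY1, at 0.671-fold (limma adjusted p = 0.598), and CAP2, a cyclase-associated actin regulator, at 1.11-fold (adjusted p = 0.831). Of the receptor kinases and G protein regulators 13 of 22 passed, with 1 lower. GRK2, a kinase that phosphorylates active receptors for arrestin to bind, read 3787, 4418 and 3746 with siLuc and 2683, 3534 and 2431 with siPTHrP. There was no overlap and the fold was 0.718 (adjusted p = 0.405), while its other set had the opposite sign. RGS3, which speeds GTP hydrolysis on alpha subunits, stood at 1.51-fold (adjusted p = 0.420), and its other set had the opposite sign. The siLuc array of experiment 1 was the lowest for RGS3, at 826.

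Downstream of GNAQ and GNA11, 9 of 12 effector genes passed the filter, with 1 lower. PLCB3, a phospholipase C beta, read 1265, 1562 and 1767 with siLuc and 785, 841 and 1073 with siPTHrP. No siPTHrP array reached the siLuc range, and the fold was 0.592 (limma adjusted p = 0.409). PLCB1, of the same family, read 1564, 481 and 625 with siLuc and 433, 462 and 190 with siPTHrP, at 0.444-fold (adjusted p = 0.453). The siLuc array of experiment 1 was the highest for PLCB1. Of the arrestin partners and endocytosis genes 11 of 16 passed the filter, with 1 higher. AP2M1, a subunit of the clathrin adaptor that binds arrestin cargo, read 4536, 4242 and 3102 with siLuc and 6527, 5242 and 6286 with siPTHrP. Every siPTHrP array was above every siLuc array, and the fold was 1.53 (adjusted p = 0.360). CLTA, a clathrin light chain, stood at 1.35-fold (adjusted p = 0.414). It read 8196, 11639 and 18462 with siLuc and 14867, 16270 and 18018 with siPTHrP, so it was lower in experiment 3.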

How the data were processed

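Total RNA of 6 samples was hybridised to Affymetrix GeneChip arrays, 1 per RNA, per the labels. The deposited values are linear signal intensities made with MAS5, per the submitters' processing notes; no source used here gives its version or settings. They were used without rescaling. Decimals occurred in 90.1% of values on the first siLuc array and on none of the other 5. Groups came from titles and descriptions. One unnumbered siLuc sample was assigned to experiment 1, the number left over, and a description that gives number 2 to the sample titled siLuc 3 was set aside.

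With R 4.3.3 and limma 3.58.1, log2(intensity + 16) was fitted for siRNA with the experiment as a block and an intensity trend (2 residual degrees of freedom, prior 7.17). After removal of 68 controls, 13329 probe sets were kept, with mean log2 values at or above the 40th percentile (8.61). Folds are on this offset scale, which understates changes of dim sets. P-values are two-sided, adjusted over all kept sets, with a threshold of 0.05. They rest on the spread between 3 experiments, moderated towards that of kept sets of similar signal, which has the larger weight. The design text pairs the RNAs: same-experiment deviations correlated at -0.012, 0.157 and 0.157, other combinations at -0.21 to 0.13. Sets under the filter were read from the fit with no filter. Names came from the array's annotation, updated by Entrez identifier to RefSeq; promoter windows came from RefSeq (GRCh38.p14). Members, lists and tests were chosen with earlier results of these data known. All 9 members with a probe set were described, with the 2 genes of smallest p from each further list. The fit was also run on simulated data with independent noise and no outlying array. That run cannot show how often the fit errs on these arrays. Alternatives were no block, other offsets, scalings, filters, no trend, array weights and left-out experiments or arrays.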

Additional observations from a re-analysis of the deposited data

How the results depend on the processing

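ADCY3 209320_at, ADCY3 209321_s_at and ARRB1 43511_s_at stayed below 0 in all 13 alternatives, and 13 of 25 member probe sets kept their sign in each alternative that gave them a value. With no replicate block 0 members passed, as in the paired fit. Array weights gave 177 probe sets past the threshold, 1 a member (ADCY3 209320_at); leaving out an experiment gave 33 to 215, with 0 to 1 member. Without the siLuc array of experiment 1, an alternative chosen after seeing the data, 10 member sets had groups without overlap, against 5; over all probe sets the shares also went up, from 9.69% to 17.1% lower and from 8.94% to 13.8% higher. Over all 13 alternatives, 12 sets turned sign in at least 1, and the cause was not tested. With median centring the log2 fold changes were 0.026 (ADCY7), 0.079 and 0.081 (GNAS 214548_x_at, 211858_x_at) and 0.058 (GNA11 564_at). With quantile normalization they were 0.24 (ADCY7) and 0.069 (564_at), and with array weights 0.091 (GNA11 213766_x_at). With that array removed and the pairing dropped they were -0.28 (ADCY6), 0.14 (ADCY7), 0.036 (GNAS 217673_x_at) and 0.18 (213766_x_at). Leaving out each experiment gave -0.25 to 1.05 (ADCY6), -0.092 to 0.011 (ADCY7), -0.65 to 0.82 (ADCY9 204498_s_at) and -0.090 to 0.99 (ARRB1 49111_at). For GNAS the ranges were -0.21 to 0.081 (200780_x_at), -0.082 to 0.086 (214548_x_at), -0.26 to 0.24 (211858_x_at), -0.44 to 0.14 (217673_x_at) and -1.29 to 0.10 (217057_s_at, left out by the filter without experiment 2, so from 2 fits). For GNA11 they were -0.25 to 0.17 (564_at), -0.34 to 0.042 (213766_x_at) and -0.56 to 0.11 (204248_at). The 6 sets under the filter had SEs of 0.70 to 0.95 on the log2 scale, and 3 arrays a group limit all values.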
